A study of Mus musculus with 6 samples.

Results

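The CCN genes encode secreted matricellular proteins, which sit in the extracellular matrix and signal to cells without building the matrix themselves. The 5 CCN genes examined here were Ctgf (now Ccn2), Cyr61 (now Ccn1), Nov (now Ccn3), Wisp1 (now Ccn4) and Wisp2 (now Ccn5). They were found by their older symbols in a table of 19730 rows and 19642 distinct gene symbols, with 1 row for each gene. Wisp3, the remaining CCN gene of the mouse, was not analysed here. RNA-Seq was done on primary mesangial cells of the mouse, which hold the capillary loops of the kidney glomerulus together and lay down its matrix. There were 3 libraries of Control cells and 3 of cells given TGF-β1, the cytokine that drives scarring of the kidney. Per the labels, cells of all libraries were grown in high glucose (25.5 mM) with 20% foetal bovine serum and used at passages 3 to 6, and the treated cells were exposed to TGF-β1 at 10 ng/ml over 72 h. No vehicle is given for the Control cells. Nothing states that the 3 libraries of a group came from separate cultures, so p-values measure the spread between these libraries, which may be technical.

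Values are FPKM, the fragments of a transcript scaled to its length in kilobases and to the depth of the library, so that levels can be compared between genes. Depth was 10.1 to 11.1 M fragments per library, as recovered from the steps between low FPKM values. Between libraries, r of log2(FPKM + 1) across tested rows was 0.876 to 0.903 within Control and 0.914 to 0.940 within TGF-β1, where replicate 2 had the lower values (0.924 and 0.914), and 0.818 to 0.853 between groups. Of the mesangial markers, Vim (1922 to 3598 FPKM), Acta2 (912 to 4268 FPKM) and Pdgfrb (28.4 to 41.1 FPKM) were present in every library, Gata3 was at 0.756 to 2.42 FPKM, and Itga8, Des and Thy1 did not exceed 0.55 FPKM in any. Cspg4 was at most 0.115 FPKM in Control and at 0.918 to 1.37 FPKM with TGF-β1. The summed level of 5 endothelial markers, of which Emcn was the highest, was at most 0.822 FPKM. That of 4 macrophage markers was 8.19 to 9.58 FPKM in Control and 2.26 to 3.24 FPKM with TGF-β1, with Csf1r the highest in Control (5.52 to 7.38 FPKM) and Cd68 the highest with TGF-β1 (1.78 to 2.68 FPKM). The summed level of 4 tubular epithelial markers was 115 to 148 FPKM in Control and 6.37 to 7.67 FPKM with TGF-β1, nearly all of it Cdh16 (114 to 146 and 5.75 to 6.87 FPKM), while Cdh1 was at most 0.123 FPKM in any library. The 5 podocyte markers, led by Synpo, summed to 19.7 to 24.9 FPKM in Control and to 12.6 to 13.7 FPKM with TGF-β1. Whether these shifts have a part in the changes described below was not tested, and in a bulk sample fewer cells of a type and less RNA per cell cannot be told apart.

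CCN proteins are built from an insulin-like growth factor binding domain, a von Willebrand factor type C domain, a thrombospondin type 1 domain and a C-terminal cystine knot, and Wisp2 lacks the cystine knot. They bind integrins, LRP receptors and heparan sulphate proteoglycans. Ctgf is a classical TGF-β target in mesangial cells and a marker of diabetic kidney scarring, Ctgf and Cyr61 are also standard target genes of the transcriptional coactivator YAP and its DNA-binding partners, the TEAD factors, and Nov has been described as a counterweight to Ctgf in mesangial cells. The coding length was 1047 nt in Ctgf, 1140 nt in Cyr61, 1065 nt in Nov and 1104 nt in Wisp1, and 756 nt in Wisp2. Each gene has 5 exons in the transcript that its row names. On mm9, Ctgf lies on chromosome 10 (24315248 to 24318489), Cyr61 on chromosome 3 (145309935 to 145312949), Wisp2 on chromosome 2 (163646597 to 163658882), and Nov and Wisp1 both lie on chromosome 15 (54577257 to 54585594 and 66722882 to 66754763). Ctgf overlaps the long non-coding RNA Gm15270 on the opposite strand, and no gene overlaps the other 4. Whether the counting used strand is not stated.

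Because Cyr61 is a YAP-TEAD target, its promoter is shown at the letters that TEAD factors recognise, CATTCC or its reverse complement GGAATG. The windows are 30 bases of the strand of the gene, from RefSeq promoters (250 bases before to 50 bases after the start, GRCm38.p6), with the matching letters in capitals. Cyr61 is set beside Ankrd1, Amotl2 and Ajuba, other YAP-TEAD targets whose expression is given further on. No window was used for Ctgf, Nov, Wisp1 and Wisp2.
Cyr61: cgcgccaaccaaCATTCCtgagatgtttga
Ankrd1: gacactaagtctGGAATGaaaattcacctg
Amotl2: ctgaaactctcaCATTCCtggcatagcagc
Ajuba: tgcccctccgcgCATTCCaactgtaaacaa
The Cyr61 window lies at chr3:145650071-145650100 on the minus strand, with its match 103 bases before the start. The others lie at chr19:36119950-36119979 (minus, 123 bases before the start, the nearer of 2 matches), chr9:102717727-102717756 (plus, 65 bases) and chr14:54577808-54577837 (minus, 164 bases, also the nearer of 2). These letters, on either strand, occur in 14.7% of 32851 whole RefSeq promoters (250 bases before to 50 bases after the start), not of 30-base windows. Of the 16 listed YAP-TEAD targets with such a promoter, 7 hold them, against 16.6% of 27025 genes. The SMAD palindrome GTCTAGAC (in 0.213% of promoters), the AP-1 site TGACTCA (5.20%, both strands) and the CArG box of serum response factor (1.63%) were not found in this Cyr61 promoter. Sequence beyond its 250 bases before and 50 bases after the start was not searched. A match describes the sequence and does not show that a factor bound there.

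Expression of Ctgf, Wisp1 and Cyr61 was upregulated by TGF-β1 and that of Wisp2 and Nov was downregulated. Ctgf was 24.0-fold higher by the ratio of group means, Wisp1 13.7-fold and Cyr61 3.09-fold, whereas Wisp2 was 1.90-fold lower and Nov 8.43-fold lower. Without TGF-β1 replicate 1 the value of Nov was 18.3-fold, and without each of the other libraries it was 6.29-fold to 8.96-fold. Of the 4 genes with a mean of at least 1 FPKM, which were tested together with all such rows, 3 were called higher and 1 lower, where 48.1% of 11898 tested rows were called, 24.5% higher and 23.6% lower. Nov lay under that filter and was taken from the same fit without the filter, in which 30.5% of 19730 rows were called and 16% were called lower. The groups did not overlap in any of the 5 genes, as in 59.4% of the filtered rows and 44.1% of all rows. Changes given as log2 are differences in log2(FPKM + 1), a scale on which the change of a low gene such as Nov comes out smaller than it was.

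**Figure D1:**
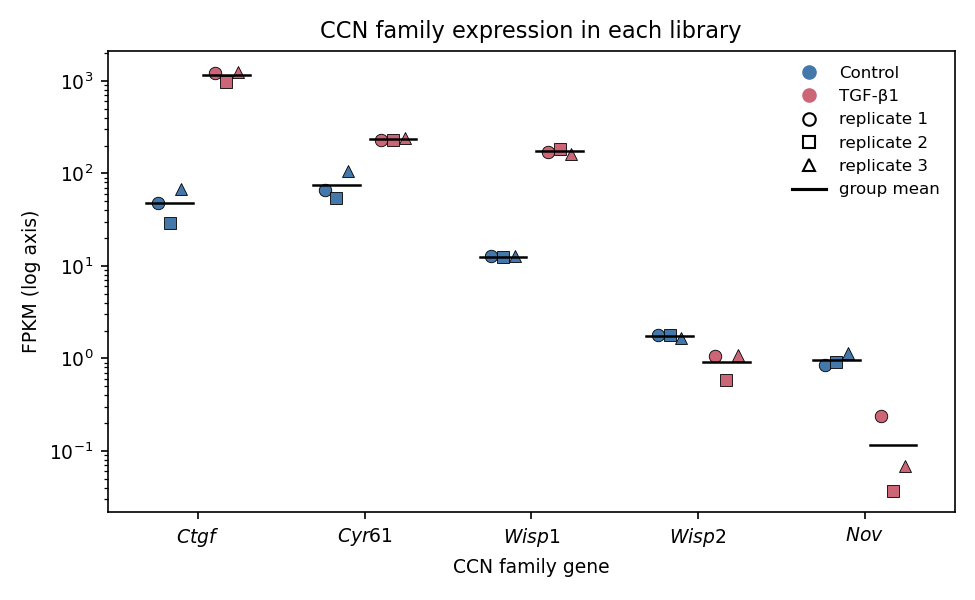
FPKM of the 5 CCN genes (log axis) in the 3 Control and 3 TGF-β1 libraries. Each point is 1 library, the marker shape gives the replicate number and the bar is the group mean. The TGF-β1 libraries sit above all Control libraries for Ctgf, Cyr61 and Wisp1 and below them for Wisp2 and Nov.

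Ctgf, a promoter of matrix synthesis, was at 48.0, 28.8 and 67.6 FPKM in Control replicates 1 to 3 and at 1225, 979 and 1258 FPKM in TGF-β1 replicates 1 to 3. The replicate 2 library was the lowest of each group, and the lowest treated library was still far above the highest Control library. The log2 change was 4.63 (SE 0.30, limma adjusted p 9.54e-05), and 12 of the 11898 tested rows had a larger rise. Among all rows ordered by mean level, Ctgf moved from position 1991 in Control to position 110 with TGF-β1.

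Wisp1, which was named as a gene induced by Wnt1 and promotes fibroblast proliferation, was at 12.8, 12.4 and 12.8 FPKM in Control and at 173, 185 and 162 FPKM with TGF-β1. Its Control libraries lay close together, with a coefficient of variation of 1.75% against a median of 12.1% over tested rows, and all treated libraries lay above them. The log2 change was 3.67 (SE 0.08, limma adjusted p 2.69e-06), with a position of 35 among the rises. Wisp1 moved from position 5781 to position 638 of all rows by level.

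Cyr61, a ligand that supports cell adhesion and angiogenesis, was at 66.6, 53.9 and 106 FPKM in Control and at 230, 231 and 240 FPKM with TGF-β1. Control replicate 3 stood highest in Control but remained below each treated library, and the treated libraries lay close together. The log2 change was 1.67 (SE 0.24, limma adjusted p 0.00197). It was 1.95 without Control replicate 3 and 1.46 without Control replicate 2, and the call held in both fits. Cyr61 moved from position 1297 to position 488 by level.

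Nov was at 0.847, 0.916 and 1.15 FPKM in Control and at 0.239, 0.0370 and 0.0692 FPKM with TGF-β1. It was therefore a low gene in every library, and its treated values differed among themselves, with replicate 1 the highest. The FPKM of Nov resolved into whole fragments, 25, 27 and 33 in the Control libraries and 7, 1 and 2 in the TGF-β1 libraries, each within 0.1 of a whole number. Pooled over libraries, 85 fragments against 10 gave a rate 8.25 times higher in Control, with an exact 95% interval of 4.27 to 17.8 that covers counting error only. The log2 change was -0.82 (SE 0.10, limma adjusted p 0.00211), and with a pseudocount of 0.1 in place of 1 it was -2.42.

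Wisp2, an inhibitor of smooth muscle proliferation and the member without a cystine knot, was at 1.78, 1.79 and 1.65 FPKM in Control and at 1.07, 0.586 and 1.09 FPKM with TGF-β1. All treated libraries lay below all Control libraries, and TGF-β1 replicate 2 was the lowest. The row names a non-coding transcript of 903 nt (ENSMUST00000138730), but its values came out as whole fragments, within 0.1, in 5 of 6 libraries with the length of the coding transcript (1719 nt) and in 0 of 6 with 903 nt. With the coding length they correspond to 27 to 30 fragments in the Control libraries and to 9 to 18 with TGF-β1. Pooled, 87 fragments against 45 gave a rate 1.88 times higher in Control (exact 95% interval 1.29 to 2.75, counting error only). The log2 change was -0.53 (SE 0.15, limma adjusted p 0.0288). Wisp2 passed the filter of 1 FPKM only through its Control values, and in the fit without the filter it was also called (limma adjusted p 0.0337). The call was lost without Control replicate 1 (adjusted p 0.0654) and without Control replicate 2 (0.0666), as well as after quantile normalization (log2 change -0.27, adjusted p 0.143).

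Among the treated libraries, replicate 2 was the lowest for Ctgf, Wisp2 and Nov and the highest for Wisp1. In a fit of replicates 1 and 3 alone the log2 change was 4.42 for Ctgf (limma adjusted p 0.00187), 3.61 for Wisp1 (9.61e-04) and 1.47 for Cyr61 (0.0190). For Nov it was -0.79 (0.0513) and for Wisp2 -0.38 (0.0654), so that these 2 calls were lost with 2 libraries per group. With replicate 2 as a batch term all 5 genes were called, Nov at an adjusted p of 0.00439 and Wisp2 at 0.0319.

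The order of the members by level differed between the groups. In Control the means were 75.6 FPKM for Cyr61, 48.2 for Ctgf, 12.6 for Wisp1, 1.74 for Wisp2 and 0.970 for Nov. Cyr61 was above Ctgf within each Control library, but the ranges over libraries overlapped (53.9 to 106 against 28.8 to 67.6 FPKM), and the other neighbours did not overlap. With TGF-β1 the means were 1154 FPKM for Ctgf, 234 for Cyr61, 173 for Wisp1, 0.917 for Wisp2 and 0.115 for Nov, and no neighbours overlapped. The summed FPKM of the family was 97.8 to 190 in Control and 1396 to 1661 with TGF-β1. Ctgf made up 29.5 to 36.9% of that sum in Control and 70.1 to 75.7% with TGF-β1, while Cyr61 went from 51.2 to 56.1% to 14.1 to 16.6%. Wisp1 held 6.73 to 12.7% and 9.76 to 13.3% of the sum, ranges that overlapped. The ratio of Ctgf to Cyr61 was 0.535 to 0.721 in Control and 4.24 to 5.33 with TGF-β1.

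**Figure D2:**
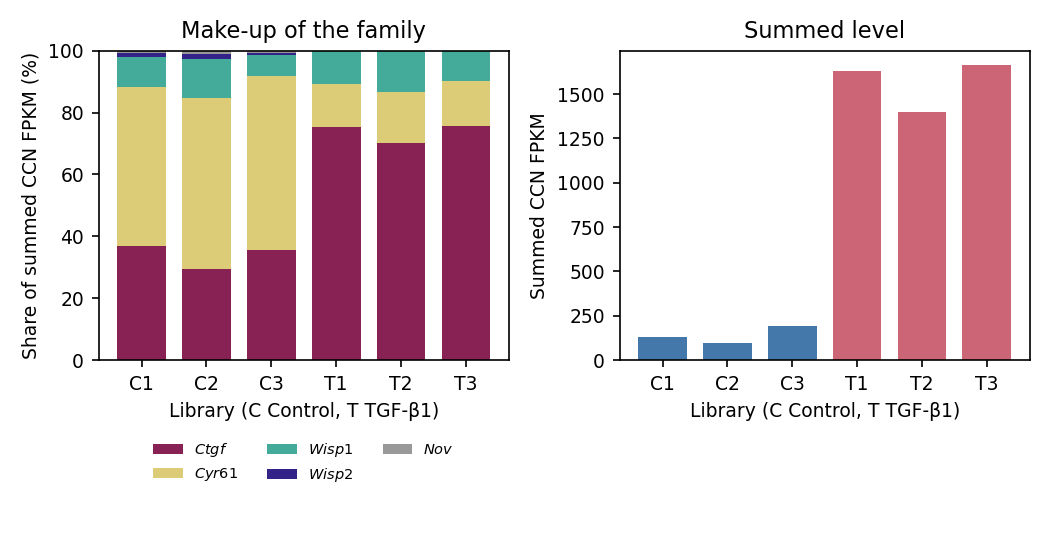
Share of each CCN gene in the summed CCN FPKM of each library (left, percent) and the sum itself (right, FPKM). Cyr61 is the largest part in the 3 Control libraries and Ctgf in the 3 TGF-β1 libraries, where the sum is 1396 to 1661 FPKM.

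Ctgf and Cyr61 varied widely among the Control libraries and in the same order, lowest in replicate 2 and highest in replicate 3. Their coefficients of variation in Control were 40.3% and 36.3%, where 2264 tested rows with a Control mean of 30 to 120 FPKM had a median of 9.71%. Of those rows, 46 had a coefficient at least that of Ctgf and 66 at least that of Cyr61, the members themselves included. The same order of the Control libraries was found in 17.7% of all tested rows, and in 6 of 19 tested YAP-TEAD targets outside the family. With TGF-β1 the coefficient of variation was 13.2% for Ctgf and 2.34% for Cyr61, where the median over tested rows was 9.96%. These comparisons were chosen after the values were seen and are given without a test.

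The genes whose pattern was most like that of each member were taken, for the 4 members that passed the filter and so without Nov, as those at the smallest Euclidean distance between centred log2(FPKM + 1) values over the 6 libraries, among 11627 rows. For Ctgf they were Tnnt2, the cardiac form of troponin T, which was 5.08 ± 1.55 FPKM in Control and 163 ± 16.4 FPKM with TGF-β1 (SD, n = 3), then Postn, which encodes the matricellular protein periostin (9.09 ± 1.74 and 239 ± 16.6 FPKM), and C1qtnf3 (0.764 ± 0.0752 and 50.7 ± 3.16 FPKM). The distances were 0.601, 0.652 and 0.882. For Cyr61 they were the stress response transcription factor Atf4 (distance 0.251, 130 ± 36.4 and 370 ± 13.3 FPKM), Irak2 (0.291) and Ivl (0.329, 0.415 ± 0.393 and 4.14 ± 0.345 FPKM). For Wisp1 the nearest was Thbs1, the matricellular protein thrombospondin 1, at a distance of 0.188, with 18.2 ± 0.343 FPKM in Control and 220.5 ± 15.2 FPKM with TGF-β1, followed by the elastic fibre gene Fbln2 (0.237) and Fxyd5 (0.310). For Wisp2 they were Abhd16a (0.0934, 34.6 ± 0.744 and 24.8 ± 3.69 FPKM), AI837181 (0.128, 49.3 ± 1.36 and 33.3 ± 4.73 FPKM) and Pmf1 (0.138, 17.3 ± 1.11 and 11.6 ± 2.36 FPKM). The distances differ in scale between members, since a small change gives small distances. Likeness on this scale is not likeness in fold, because the added 1 shrinks the change of a low gene. Each gene near Wisp2 fell by a smaller factor than Wisp2 (1.90-fold). Each gene near Ctgf rose by a larger factor than Ctgf (24.0-fold), and Ivl rose by a larger factor than Cyr61 (3.09-fold). C1qtnf3 and Ivl passed the filter of 1 FPKM only through their treated values.

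Receptors that have been described for CCN proteins were examined next. Of 15 listed, 14 had a row and 12 were tested, of which 6 were upregulated, 4 were downregulated and 2 were not called, where 24.5% of all tested rows were called higher and 23.6% lower. The median log2 change was 0.40 against -0.02 over all tested rows. The largest rises were those of 3 integrin subunits. Itga5, which pairs with Itgb1 as the fibronectin receptor, rose from 25.9 ± 1.91 to 168 ± 15.3 FPKM (log2 change 2.65, with an adjusted p in limma of 1.47e-05), Itgb1 from 259 ± 9.96 to 1026 ± 16.4 FPKM (1.98) and Itgb3 from 1.57 ± 0.105 to 8.44 ± 0.534 FPKM (1.87). Igf2r, which clears insulin-like growth factor 2, rose from 5.48 ± 0.742 to 9.38 ± 0.627 FPKM (log2 change 0.69). The receptors that fell were Notch1 (5.19 ± 1.11 to 1.56 ± 0.271 FPKM, log2 change -1.26), Fgfr2 (73.4 ± 4.61 to 31.6 ± 2.17 FPKM, -1.19), the heparan sulphate proteoglycan Sdc4 (55.7 ± 0.843 to 30.04 ± 1.55 FPKM, -0.87) and the Wnt coreceptor Lrp6 (17.2 ± 2.64 to 10.8 ± 1.49 FPKM, -0.62). Lrp1, an endocytic receptor of Ctgf, was at 223 ± 33.1 and 296 ± 50.8 FPKM (adjusted p 0.0930) and Itgav at 20.0 ± 4.26 and 26.4 ± 1.91 FPKM (0.0746). Lrp1 was called without TGF-β1 replicate 2 (adjusted p 0.0265) and Itgav without Control replicate 3 (0.0130).

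Among 17 listed binding partners of CCN proteins and proteases that cut them, 11 were tested, 9 rose and 2 fell, with a median log2 change of 1.24, where 48.1% of all tested rows were called in either direction. Fibronectin (Fn1), a matrix protein that Ctgf binds, rose from 386 ± 63.4 to 3134 ± 103 FPKM (log2 change 3.03, with an adjusted p in limma of 2.55e-05) and the small proteoglycan Bgn, to which Wisp1 binds, from 7.53 ± 0.306 to 59.8 ± 4.75 FPKM (2.83). Gja1, the gap junction protein connexin 43 with which Nov associates, rose from 8.24 ± 2.22 to 34.3 ± 4.09 FPKM (1.95). Tnfrsf11b, the decoy receptor osteoprotegerin, had a listed value of 0 in all 3 Control libraries and was at 2.61, 3.17 and 2.89 FPKM with TGF-β1. This gene, counted among the 9 rises, passed the filter only through its treated values, and an exact 0 may be a failed estimate. Its log2 change was 1.96, and 4.90 with a pseudocount of 0.1. The 2 genes that fell were Dcn, the proteoglycan decorin that binds Ctgf and TGF-β (104 ± 1.92 to 3.30 ± 0.472 FPKM, log2 change -4.62, adjusted p 2.69e-06), and Bmp4, a growth factor that Ctgf binds (17.2 ± 3.43 to 5.05 ± 0.888 FPKM, -1.58).

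**Figure D3:**
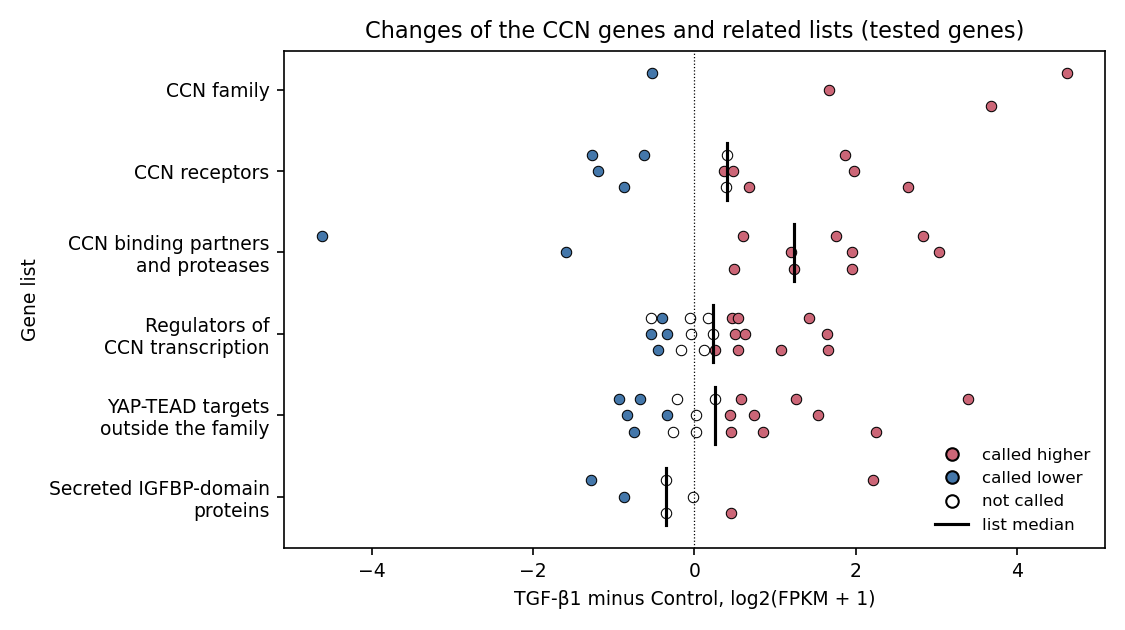
Difference between TGF-β1 and Control on the log2(FPKM + 1) scale for each tested gene of the CCN family and of 5 related lists. Red points were called higher, blue points lower and open points were not called, and black bars are the medians of the 5 related lists. The binding partners have the highest median (1.24), and the regulators and YAP-TEAD targets lie on both sides of 0.

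Of 22 listed regulators of CCN transcription 21 were tested, and 10 rose, 4 fell and 7 were not called (median log2 change 0.24), beside the 48.1% called among all tested rows. The inhibitory Smad7 rose from 11.9 ± 1.84 to 39.3 ± 2.25 FPKM (log2 change 1.66, with an adjusted p in limma of 1.62e-04), the ligand Tgfb3 from 19.4 ± 1.33 to 63.0 ± 2.56 FPKM (1.65), the transcription factor Ets1 from 4.72 ± 0.746 to 14.3 ± 0.543 FPKM (1.43) and Tgfb1 itself from 29.4 ± 3.91 to 62.8 ± 6.26 FPKM (1.07). The falls were smaller, in the receptors Tgfbr1 (9.62 ± 1.37 to 6.32 ± 0.366 FPKM, -0.53) and Tgfbr2 (12.9 ± 1.01 to 9.98 ± 0.219 FPKM, -0.33), in Smad3 (27.6 ± 1.56 to 20.7 ± 1.88 FPKM, -0.40), which carries the TGF-β signal to the nucleus, and in Tead4 (4.57 ± 0.251 to 3.10 ± 0.588 FPKM, -0.45). Tead2 (79.5 ± 6.06 and 76.9 ± 4.32 FPKM, adjusted p 0.690) and Smad4 (44.2 ± 6.58 and 52.2 ± 7.38 FPKM, 0.236) were not called. Also on the list, Smad2 (adjusted p in limma 0.00825), Tead1 (0.00488) and Wwtr1 (0.0346) rose, and Yap1 (0.300) and Tead3 (0.0597) were not called. Without TGF-β1 replicate 1 the number called dropped from 14 to 9, in a fit that called 4419 of the 11898 rows. Among the calls lost in that fit were Smad3 (adjusted p 0.0520), Tgfbr2 (0.0674) and Tead4 (0.0878). The call of Tgfbr2 was also lost without Control replicate 2 (0.0508) or TGF-β1 replicate 3 (0.0618), and that of Tead4 without Control replicates 1 to 3 (0.0529 to 0.0758) or TGF-β1 replicate 2 (0.0703).

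YAP-TEAD targets outside the family did not all move in the direction of Ctgf and Cyr61. Of 22 listed, 19 were tested, 9 rose, 5 fell and 5 were not called, with a median log2 change of 0.25, and 24.5% of all tested rows rose and 23.6% fell. Dock5, counted among the 9 rises (0.905 ± 0.0195 to 2.44 ± 0.382 FPKM), passed the filter of 1 FPKM only through its treated values. Gadd45a, a stress-inducible growth arrest gene, rose from 21.7 ± 4.71 to 233 ± 11.01 FPKM (log2 change 3.39, with an adjusted p in limma of 3.34e-05). Ankrd1, a muscle ankyrin repeat protein, rose from 162 ± 14.8 to 773 ± 51.4 FPKM (2.25). Amotl1, which binds YAP, rose from 14.9 ± 2.67 to 44.7 ± 3.23 FPKM (1.54) and the kinase Nuak2 from 14.2 ± 1.79 to 35.3 ± 1.73 FPKM (1.26). Amotl2, a relative of Amotl1, fell from 90.2 ± 6.31 to 46.7 ± 2.96 FPKM (-0.94), Arhgef17 from 33.6 ± 5.62 to 18.3 ± 0.678 FPKM (-0.83), tissue factor (F3) from 10.3 ± 2.92 to 5.60 ± 0.304 FPKM (-0.75) and the mitotic gene Birc5 from 4.90 ± 0.838 to 2.72 ± 0.753 FPKM (-0.68). Ajuba (63.4 ± 6.65 and 64.3 ± 4.07 FPKM, adjusted p 0.865) and Rbms3 (17.1 ± 1.78 and 14.1 ± 1.66 FPKM, 0.113) were not called. Of the genes whose promoter windows are printed above, Cyr61 and Ankrd1 thus rose, Amotl2 fell and Ajuba was not called. Among the other listed targets with these letters and a row, Axl (log2 change 0.58) and Crim1 (0.46) rose and Ptpn14 fell (-0.34). The call of F3 was lost in 4 of the 6 fits without 1 library, those leaving out Control replicate 1 or a treated library (adjusted p 0.0583 to 0.0719), and that of Birc5 without Control replicate 1, Control replicate 3 or TGF-β1 replicate 1 (0.0597 to 0.0848).

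Other secreted proteins that share the insulin-like growth factor binding domain with the CCN proteins moved in both directions. Of 11 listed, 7 were tested, 2 rose, 2 fell and 3 were not called (median log2 change -0.34), beside the 48.1% called among all tested rows. The protease Htra1 rose from 16.8 ± 2.98 to 80.9 ± 5.40 FPKM (log2 change 2.22, with an adjusted p in limma of 7.66e-05) and Crim1, also a listed YAP-TEAD target, from 29.9 ± 1.13 to 41.5 ± 0.716 FPKM (0.46). Igfbp4 fell from 2.22 ± 0.636 to 0.309 ± 0.0318 FPKM (-1.28) and Kazald1 from 2.35 ± 0.219 to 0.867 ± 0.452 FPKM (-0.87). Both passed the filter of 1 FPKM only through their Control values. In the fit without the filter both were also called (adjusted p in limma 0.00230 and 0.0163). Igfbp7, the most abundant of the list, was at 2139 ± 185 and 2116 ± 154 FPKM (adjusted p 0.932), and Igfbp2 at 4.09 ± 0.528 and 3.04 ± 0.763 FPKM (0.127). Igfbp2 was called without TGF-β1 replicate 1 (adjusted p 0.0416). Of the listed genes named by size of change or level, 13 overlap a gene on the opposite strand (Bmp4, Crim1, Fgfr2, Fn1, Gadd45a, Htra1, Igf2r, Igfbp7, Itgav, Lrp1, Notch1, Rbms3 and Tead2), and their values carry that uncertainty. The same holds for Ptpn14, Tead1, Wwtr1 and Yap1.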

How the data were processed

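RNA-Seq was performed on 3 Control and 3 TGF-β1 libraries. The authors aligned quality-filtered reads to mm9 with TopHat2 (version 2.0.11 per the labels) and deposited FPKM values from Cufflinks, with no scaling between libraries stated. Counts were not used, so the test differs from the count model of the study. Columns were matched to samples by title. Of 19730 rows, 19699 were found in the mm9 annotation (GENCODE M1).

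Rows with a mean of at least 1 FPKM were log2-transformed with a pseudocount of 1 and fitted in limma 3.58.1 (R 4.3.3, lmFit and eBayes, mean-variance trend). Tests were two-sided, p-values were adjusted by Benjamini-Hochberg over every row tested, and an adjusted p under 0.05 was called. The script was tested on simulated data. The members and gene lists were chosen with earlier results of these data known. Within lists, the up to 4 largest called rises and falls and the 2 most abundant genes without a call were named, and 3 genes per member for likeness. Smad2, Tead1, Tead3, Wwtr1, Yap1, Axl, Ptpn14 and Dock5 were named outside this rule.

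Depth came from low values of protein-coding genes with 1 annotated transcript: with a fragment length of 200 nt, 98.2 to 99.6% of 1079 to 1188 values per library were whole multiples of 1 fragment within 0.1 (24.0 to 27.4% when jittered). Of 6135 coding rows of at least 10 FPKM, 3 were listed at 0 in a library, so an exact 0 may be a failed estimate. Alternatives changed the pseudocount, filter, scaling, trend, block, batch term and libraries. Python 3.11.15 was used.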

Additional observations from a re-analysis of the deposited data

How the results depend on the processing

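The fits were repeated under 15 alternatives. Ctgf (log2 change 4.31 to 4.91), Wisp1 (3.56 to 3.77) and Cyr61 (1.46 to 1.95) were called higher in all 15, with adjusted p-values of at most 0.00187, 9.61e-04 and 0.0190. Nov was called lower in 12 of 13 (adjusted p 0.00222 to 0.0513), and within replicates 1 and 3 it was not (-0.79). Wisp2 was lower in all 14 and called in 9 (adjusted p 0.0172 to 0.143). It was not called after quantile normalization (-0.27), with the replicate block (-0.53), within replicates 1 and 3 (-0.38) or without Control replicate 1 or 2. Nov was not in the filtered fits and Wisp2 not in that with a mean of at least 3 FPKM. The fits that left out 1 library gave -0.90 to -0.76 for Nov and -0.59 to -0.39 for Wisp2.

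The number of changed genes was 5721 and ranged from 4195 to 6026 over the alternatives (4419 to 5446 when 1 library was left out). Called regulators of CCN transcription numbered 9 to 12 in the fits without 1 library, against 14. Called IGFBP-domain genes numbered 2 with a mean of at least 3 FPKM, against 4, since fewer were tested there. For the 42 list genes named by size of change or level, 591 of 627 refits kept the direction and the side of the threshold, 23 lost and 5 gained a call. The other 8 changed sign in genes without a call, Ajuba after quantile normalization (-0.10) and in fits without 1 library (-0.064 to 0.078), and Igfbp7 after median-ratio rescaling (0.018), quantile normalization (0.0365) and in fits without 1 library (-0.081 to 0.044). The cause was not tested. Both scalings left the median change of all genes within 0.1 of 0.

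Replicate numbers are shared between the groups. Deviations from the group means correlated across genes at 0.0921, 0.232 and 0.0853 for replicates 1, 2 and 3. TGF-β1 replicate 3 correlated best with Control replicate 1 (0.117), and the other pairs of unlike number were negative (-0.194 to -0.016). Because of that exception the numbers were not taken to pair the libraries, although a weak pairing remains possible. With the replicate block 5391 genes changed, Wisp2 was at an adjusted p of 0.0583 and Lrp1 at 0.0471. Depth limits Nov and Wisp2, which rest on 1 to 33 fragments per library.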
